A study of Mus musculus with 8 samples.

Results

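The immunoproteasome and the machinery that loads peptides onto MHC class I are described here through 10 genes. The samples are cultured mouse MDSCs (myeloid-derived suppressor cells), which dampen T cell responses. The genes are Psmb8, Psmb9, Psmb10, Psme1, Psme2, Tap1, Tap2, Tapbp, Nlrc5 and B2m. They were taken by name from the count table, where all 10 were found among 26930 gene identifiers, and all 10 had enough counts to be tested. They were picked for their function and with the contrast between treated and untreated cells in view, so their differences in that contrast are given as a description, without p-values, and nothing is supported by them.

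The cells came from C57BL/6 bone marrow grown with GM-CSF and IL-6, each at 40 ng/ml, and on day 4 were given conditioned medium of TRAMP-C1, a prostate tumour line from mouse. Both groups share that history, and the labels call all the cells senescent-like. Poly(A) RNA was sequenced from 4 samples given Romidepsin, a histone deacetylase inhibitor, at 0.5 µM for 6 h, and from 4 left untreated. No label says that replicates came from separate animals or cultures, so a p-value here speaks of the spread among these samples alone, and that spread may be technical. The cells are a culture model with no group that is not senescent-like.

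Cells present fragments of their own proteins on MHC class I, a heavy chain paired with beta-2-microglobulin, so that CD8 T cells can inspect them. The fragments are cut by the proteasome, whose catalytic subunits are exchanged for immunosubunits under interferon, and the PA28 activator opens its gate. The TAP transporter then carries peptides into the endoplasmic reticulum, where tapasin helps load them. NLRC5 switches on the promoters of many of these genes.

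All 10 genes were lower on average in Romidepsin-treated cells, except that B2m turned to 0.076 (log2) when libraries were scaled to housekeeping genes. Psmb10, the immunosubunit beta2i, stood furthest apart, at 30.0 ± 31.2 CPM (read counts relative to library size) in treated cells and 179 ± 54.0 CPM in untreated cells (SD, n = 4 each). B2m, the light chain of every class I molecule, differed least, at 3902 ± 1933 CPM in treated cells and 5719.6 ± 2534 CPM in untreated cells. CPM were computed with library sizes adjusted by TMM, edgeR's trimmed-mean scaling. The median log2 fold change of the 10 genes, treated over untreated, was −1.17, while the median over all 12852 genes tested was 0.01. All 10 genes also belonged to the most highly expressed of 5 equal classes of tested genes in untreated replicates 1 and 2. In that class the median was −0.40 and 74.7% of 2571 genes lay below 0. Untreated replicates 1 and 2 are also part of the contrast, so choosing genes high in them can by itself move that class below 0.

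The DNA before the starts of these genes is shown first, as background on where NLRC5 and interferon act. Their action on these genes was not tested here. RefSeq windows of 300 bases on GRCm38.p6, running from 250 bases before a start to 50 after it, were found for 8 of the 10 genes. Those of Tap2 and Nlrc5 were not used here. Each window is printed on the strand of its gene, 5′ to 3′. Capitals mark matches, on either strand, to an interferon-stimulated response element core (GAAA, any 2 bases, GAAA), a gamma-activated site (TTCNNNGAA), a CCAAT box (CCAAT), a cyclic AMP response half-site (TGACG) or the kappaB motif. The B2m window is chr2:122147437-122147736 on the plus strand, and is shown because it holds 4 of the 5 motifs. The Tap1 window, chr17:34187306-34187605 on the plus strand, is shown because it shares 275 bases with the window of Psmb9 on the other strand. The Psmb10 window, chr8:105938343-105938642 on the minus strand, is shown because that gene differed most. The Psme1 window, chr14:55578244-55578543 on the plus strand, holds the only other match to the response element core.
B2m: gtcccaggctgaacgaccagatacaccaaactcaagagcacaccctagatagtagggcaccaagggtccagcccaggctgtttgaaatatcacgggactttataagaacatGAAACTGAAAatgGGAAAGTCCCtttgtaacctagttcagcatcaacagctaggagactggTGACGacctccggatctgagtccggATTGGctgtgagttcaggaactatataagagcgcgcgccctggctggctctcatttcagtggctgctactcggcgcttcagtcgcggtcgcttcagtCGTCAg
Tap1: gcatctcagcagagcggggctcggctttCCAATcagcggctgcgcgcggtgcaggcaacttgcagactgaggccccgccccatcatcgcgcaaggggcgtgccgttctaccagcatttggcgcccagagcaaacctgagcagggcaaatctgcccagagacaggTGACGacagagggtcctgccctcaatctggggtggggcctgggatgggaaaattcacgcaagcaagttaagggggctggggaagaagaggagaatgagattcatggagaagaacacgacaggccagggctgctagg
Psmb10: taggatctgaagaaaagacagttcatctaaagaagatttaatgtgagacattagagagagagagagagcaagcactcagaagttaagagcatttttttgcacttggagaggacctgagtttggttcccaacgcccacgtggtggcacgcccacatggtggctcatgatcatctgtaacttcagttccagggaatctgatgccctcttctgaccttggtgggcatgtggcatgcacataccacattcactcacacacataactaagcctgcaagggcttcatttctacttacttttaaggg
Psme1: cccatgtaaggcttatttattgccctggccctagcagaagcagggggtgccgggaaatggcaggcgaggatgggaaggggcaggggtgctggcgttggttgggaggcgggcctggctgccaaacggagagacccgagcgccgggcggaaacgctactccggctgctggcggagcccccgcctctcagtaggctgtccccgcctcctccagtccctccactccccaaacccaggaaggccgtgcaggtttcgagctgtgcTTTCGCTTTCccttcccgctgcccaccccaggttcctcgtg

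In B2m, the response element core began at −139, the kappaB match at −126, 1 half-site at −78 and the CCAAT box, read on the other strand, at −53, counted from the RefSeq start, with a second half-site at 45. The Tap1 window held a half-site at −86 and a CCAAT box at −222. The RefSeq starts of Tap1 and Psmb9 lie 226 bases apart and point away from each other, so the same letters precede both starts. In the GENCODE annotation, from which the gene positions come, the Psmb9 start at 34187764 lies past the Tap1 start at 34187553. There the genes share 212 exon bases. Psmb10 held none of the 5 motifs in this window, and Psme1 held the response element core at 10. The gamma-activated site was matched only in Psmb8 among the 8 genes, at −97. Among 32851 windows of the same length in the RefSeq table, 3.44% held the response element core, 8.3% the gamma-activated site, 37.4% a CCAAT box, 20.8% the half-site and 8.46% the kappaB motif. The response element core was found in 2 of the 8 genes. The CCAAT box was found in 4 (B2m, Psmb9, Tap1 and Tapbp), and the half-site in 4 (B2m, Psmb9, Psme2 and Tap1). For both motifs the Tap1 and Psmb9 matches are the same bases, counted once for each gene. A match describes letters in a window and is not evidence of binding.

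Psmb8, Psmb9 and Psmb10 encode the immunosubunits beta5i, beta1i and beta2i, the proteolytic subunits that replace beta5, beta1 and beta2. Psmb8 (chromosome 17, 34197721 to 34201454, plus strand, GRCm38) had 138, 129, 321 and 199 CPM in treated replicates 1 to 4, against 390.2, 564, 573 and 309 CPM in untreated replicates 1 to 4. Only treated replicate 3 reached the untreated range, passing untreated replicate 4. The log2 fold change was −1.22 ± 0.34 (SE).

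Psmb9 (chromosome 17, 34181987 to 34187764, minus strand) had 51.2, 55.4, 123 and 72.7 CPM in treated cells, against 147, 234, 224 and 119 CPM in untreated cells. Treated replicate 3 again lay just above untreated replicate 4, and the other treated libraries lay below every untreated one. Its log2 fold change was −1.26 ± 0.33, close to that of Psmb8.

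Psmb10 (chromosome 8, 105935735 to 105938444, minus strand) had 6.94, 7.69, 73.5 and 31.8 CPM in treated cells, against 138, 214, 237 and 128 CPM in untreated cells. The groups did not overlap, and the treated libraries differed among themselves by 10.6-fold, while the untreated ones differed by 1.84-fold. The values of treated replicates 1 and 2 rested on 121 counts each. The log2 fold change was −2.58 ± 0.72 and reached −3.55 without treated replicate 3.

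Psme1 and Psme2 encode PA28 alpha and PA28 beta, the 2 kinds of subunit in the ring that caps the 20S core and widens peptide output. Psme1 (chromosome 14, 55578123 to 55581529, plus strand) had 103, 106, 321 and 199 CPM in treated cells, against 331, 469, 519 and 277 CPM in untreated cells. Psme2 (chromosome 14, 55587441 to 55591113, minus strand) had 125, 121, 242 and 186 CPM in treated cells, against 240.0, 322, 361 and 218 CPM in untreated cells. In both genes the groups overlapped through treated replicate 3 alone. The log2 fold changes were −1.13 ± 0.39 for Psme1 and −0.76 ± 0.28 for Psme2. Although the partners form 1 ring, the ratio of Psme1 to Psme2 counts averaged 1.03 ± 0.230 in treated cells and 1.39 ± 0.0821 in untreated cells.

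Tap1 and Tap2 encode the chains of the peptide transporter of the endoplasmic reticulum. Tap1 (chromosome 17, 34187553 to 34197225, plus strand) had 82.1, 93.3, 281 and 136 CPM in treated cells, against 241, 414, 571 and 396 CPM in untreated cells. Tap2 (chromosome 17, 34203527 to 34216321, plus strand) had 55.6, 56.1, 227 and 132 CPM in treated cells, against 236, 309, 365 and 256 CPM in untreated cells. The Tap2 groups did not overlap, with treated replicate 3 just under untreated replicate 1. For Tap1, treated replicate 3 passed untreated replicate 1. Log2 fold changes were −1.45 ± 0.42 for Tap1 and −1.31 ± 0.44 for Tap2. The ratio of Tap1 to Tap2 counts was 1.35 ± 0.276 in treated cells and 1.37 ± 0.252 in untreated cells.

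Tapbp encodes tapasin, which bridges the transporter to empty class I molecules. Tapbp (chromosome 17, 33915899 to 33929292, plus strand) had 291, 374, 714 and 408 CPM in treated cells, against 469.8, 810.0, 1135 and 871 CPM in untreated cells. Its treated replicates 1, 2 and 4 lay below all untreated libraries. The log2 fold change was −0.88 ± 0.35, on a gene that shares 149 exon bases with Zbtb22 on the same strand and 904 with Gm19412 on the other.

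Nlrc5 encodes the class I transactivator itself. Nlrc5 (chromosome 8, 94434356 to 94527272, plus strand) had 40.9, 62.0, 205.0 and 120.2 CPM in treated cells, against 83.3, 188, 209 and 222 CPM in untreated cells. Untreated replicate 1 was low, below treated replicates 3 and 4, and treated replicate 3 also passed untreated replicate 2. The log2 fold change was −0.71 ± 0.49.

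B2m (chromosome 2, 122147686 to 122153083, plus strand) had 2193, 2809, 6561 and 4046 CPM in treated cells, against 3162, 6534, 8887 and 4295 CPM in untreated cells. The groups overlapped widely, and untreated replicate 1 was lower than treated replicates 3 and 4. Its log2 fold change was −0.55 ± 0.44.

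**Figure D1:**
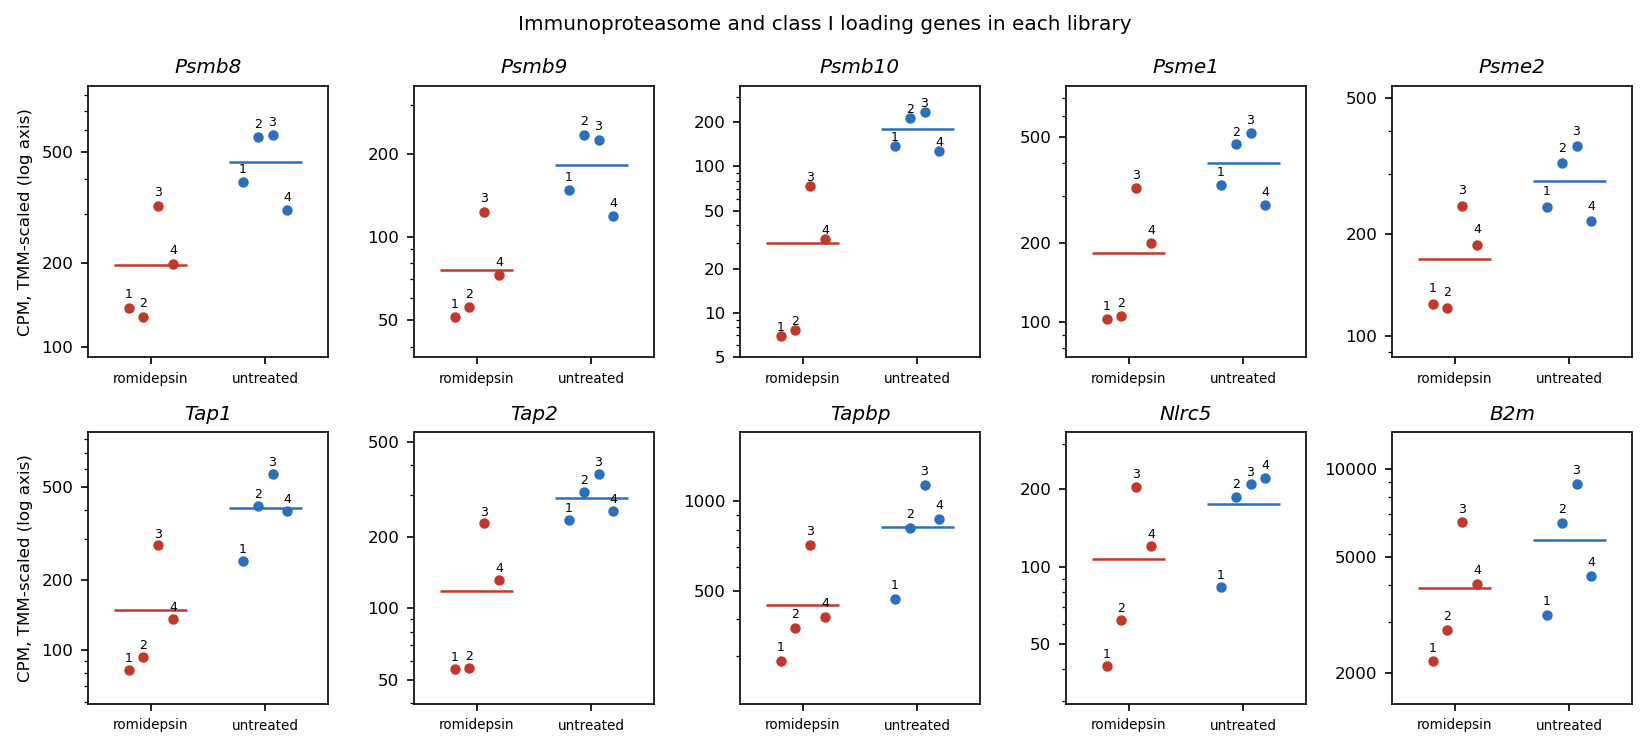
TMM-scaled CPM (log axis) of the 10 genes, with 1 point per library, numbered by replicate, and a line at each group mean. Treated replicate 3 is the highest treated library in all 10 panels, and the treated and untreated points are fully separate for Psmb10 and Tap2 only.

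The treated libraries were not alike. Treated replicate 3 was the highest treated library for all 10 genes and exceeded at least 1 untreated library for 8 of them. Either treated replicate 1 or 2 was the lowest for all 10. Untreated replicate 3 was the highest untreated library for 8. Over the whole transcriptome treated replicate 3 also lay apart, with a mean correlation of log2 CPM of 0.921 to the other treated libraries and 0.949 to the untreated ones. Without it, the median log2 fold change of the 10 genes was −1.58. Every value below 0 in the main comparison stayed below 0 when any 1 library was left out.

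Libraries with the same replicate number deviated together for numbers 1 and 3 (correlations 0.525 and 0.474). For numbers 2 and 4 they did so only weakly (0.180 and 0.104, against up to 0.0873 for libraries of different numbers). Each treated library was also set against the untreated library of its number. All 40 of these differences were below 0. The median over the 10 genes was −1.51, −2.10, −0.69 and −0.80 on the log2 CPM scale for numbers 1 to 4. Psmb10 had the lowest value in every pair, from −4.80 in number 2 to −1.69 in number 3. The smallest differences were −0.03 for Nlrc5 in number 3 and −0.09 for B2m in number 4.

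**Figure D2:**
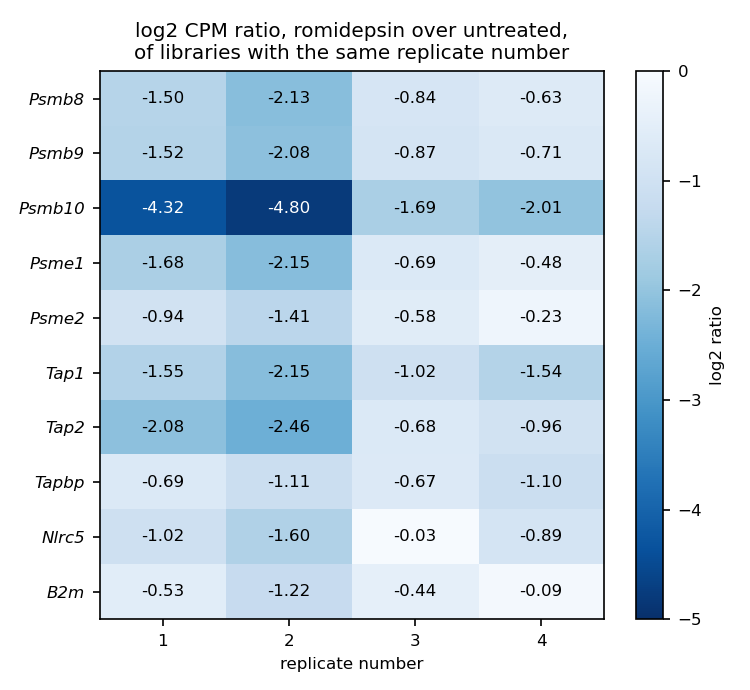
Log2 ratio of CPM, treated over untreated, for libraries of the same replicate number (columns) and each of the 10 genes (rows). All 40 cells lie below 0, and Psmb10 is the darkest row, at −4.32 and −4.80 in numbers 1 and 2.

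In edgeR's unpaired quasi-likelihood fit of the whole table, 6 of the 10 genes had an adjusted p under 0.05, all of them lower, where 16.2% of all genes tested were called lower, 20.3% higher and 36.5% either way. In the most highly expressed class 28.9% were called lower and 4.67% higher. Groups did not overlap for 2 of the 10, where the groups were apart for 16.5% of all genes with treated libraries lower and 18.7% with them higher. With the replicate block, 9 of the 10 were called lower, beside 20.8% of all genes lower and 21.2% higher. Without treated replicate 3 also 9 were, beside 23.4% lower and 24.5% higher. Housekeeping scaling left 1, beside 5.26% lower and 47.3% higher, and library size alone left 5, beside 10.6% lower and 30.2% higher. Nothing is read from these counts, because the genes were chosen on this contrast.

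Bulk RNA cannot tell fewer cells of a type from less RNA per cell, which applies to every value here. The 10 markers of MDSCs and myeloid cells summed to 1103 to 6793 CPM in treated libraries and 7467 to 11830 CPM in untreated ones. Ly6g, a granulocytic marker, stood at only 5.32 ± 4.77 CPM in treated cells and 13.1 ± 6.65 CPM in untreated cells. Ly6c1 was lower still, at 2.42 ± 3.23 CPM in treated cells and 2.58 ± 3.18 CPM in untreated cells, with 0.0799 CPM in untreated replicate 1. All 10 of these markers lay below 0, with a median log2 fold change of −1.26, beside −1.17 for the 10 class I genes. With housekeeping scaling 8 of them lay below 0, at a median of −0.66. None of the 10 markers passed edgeR's test, 3 were lower at an unadjusted p under 0.05, and DESeq2 called 4 lower and limma-voom 2. With the replicate block edgeR called 4 lower, namely Csf1r (adjusted p = 0.00571), Cd84 (adjusted p = 0.00726), Ptprc (adjusted p = 0.00857) and Ly6c2 (adjusted p = 0.0346). The 5 B cell markers summed to 17.5 to 77.7 CPM in treated and 82.9 to 279 CPM in untreated libraries, and 4 of them fell by edgeR. The 7 dendritic cell markers summed to 14.1 to 111 CPM in treated and 94.4 to 242 CPM in untreated libraries, and 1, the chemokine receptor gene Ccr7, fell (adjusted p = 0.0273 by edgeR), while Xcr1, Clec9a and Siglech were too low to be tested. The Ccr7 call was lost with housekeeping scaling (edgeR adjusted p = 0.0872). Zbtb46 went the other way (0.99 ± 0.58, edgeR adjusted p = 0.196). It was called higher with the block (edgeR adjusted p = 0.0322) and with housekeeping scaling (edgeR adjusted p = 0.0277). The part of myeloid, B and dendritic cells in the class I values was not tested. T cell, NK cell, erythroid, and mast cell and basophil markers summed to at most 30.5 CPM in any library, although 1 T cell and 1 mast cell marker fell and Epor, the erythropoietin receptor gene, rose. Platelet-type markers, mostly Pf4, summed to 353 to 813 CPM in treated and 353 to 865 CPM in untreated libraries, and stromal and epithelial sums reached 174 and 177 CPM in single libraries, with no gene of these lists called by unpaired edgeR, DESeq2 or limma-voom and none at an unadjusted p under 0.05 by unpaired edgeR. With the block the stromal collagen gene Col1a1 was called higher (edgeR adjusted p = 0.0134).

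Levels can be compared between genes only per length, and the length used matters. Per kilobase of all annotated exon bases, untreated cells held 6651 ± 2947 CPM per kb of B2m, then 226 ± 75.4 of Tapbp, 181 ± 51.4 of Psme1, 162 ± 38.3 of Psme2 and 136 ± 38.7 of Psmb8. Psmb10 followed at 105 ± 31.7 CPM per kb, then Tap2 at 77.2 ± 15.4, Tap1 at 74.0 ± 24.6, Psmb9 at 49.5 ± 15.6 and Nlrc5 at 20.7 ± 7.44. Neighbours in this order from Tapbp to Psmb9 lay within their SDs, while B2m and Nlrc5 stood apart at the ends. In treated cells the same scale gave 4537 ± 2247 CPM per kb of B2m and 12.6 ± 8.64 of Nlrc5, and Psmb10, at 17.6 ± 18.3, came down next to it. With the length of the principal transcript, a choice made after the data were seen, the order in untreated cells became B2m, Psme1, Psme2, Tapbp, Psmb8, Tap1, Psmb10, Psmb9, Tap2 and Nlrc5, with Psmb9 at 134 ± 42.1 CPM per kb, level with Psmb10 at 137 ± 41.2.

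The immunosubunits can be set against the subunits they replace within each library, which needs no scaling between libraries. The ratio of Psmb10 to Psmb7, per kilobase of exon, was 0.103, 0.133, 1.76 and 0.631 in treated replicates 1 to 4, against 2.78, 4.22, 4.84 and 3.56 in untreated replicates 1 to 4. The groups did not overlap, and treated replicate 3 was the highest treated library. The ratio of Psmb9 to Psmb6 was 0.101, 0.142, 0.268 and 0.176 in treated cells, against 0.424, 0.565, 0.50 and 0.470 in untreated cells, again without overlap. The ratio of Psmb8 to Psmb5 was 0.865, 1.16, 2.29 and 1.26 in treated cells, against 1.73, 3.30, 3.43 and 2.94 in untreated cells, with treated replicate 3 above untreated replicate 1. The group means of the log2 ratios, treated minus untreated, differed by −3.42 for Psmb10 to Psmb7, −1.60 for Psmb9 to Psmb6 and −1.08 for Psmb8 to Psmb5. These differences do not depend on the length used, although the ratios themselves do. With principal transcripts the Psmb8 to Psmb5 ratio averaged 2.89 ± 1.29 in treated and 5.92 ± 1.61 in untreated cells.

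**Figure D3:**
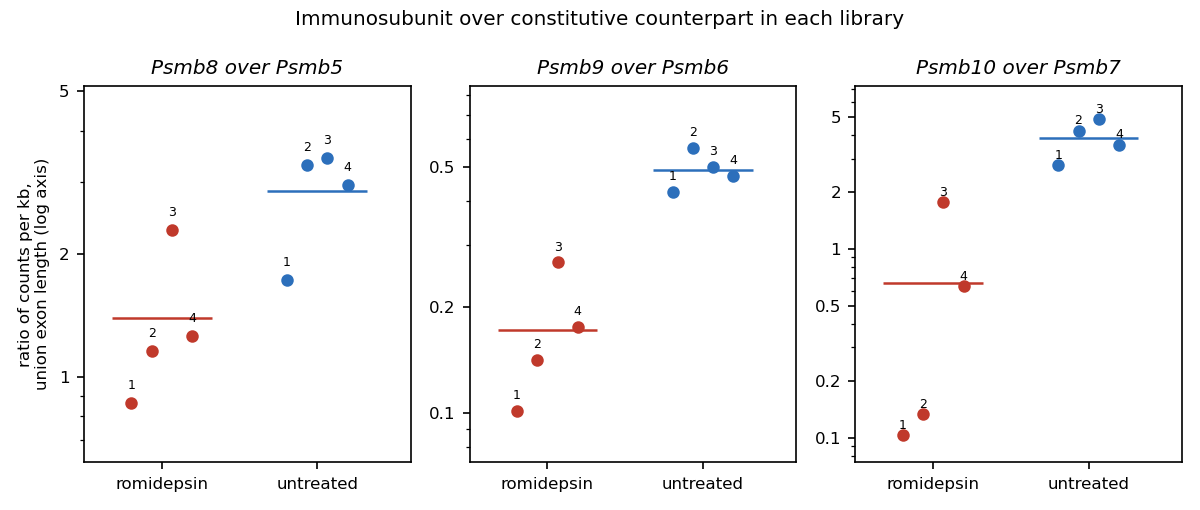
Ratio of counts per kb of exon (log axis) for each immunosubunit over its constitutive counterpart, with 1 point per library, numbered by replicate, and a line at each group mean. Treated and untreated points are separate for Psmb9 over Psmb6 and Psmb10 over Psmb7, and meet for Psmb8 over Psmb5.

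The constitutive subunits themselves were tested, since they are not among the 10. Psmb5, Psmb6 and Psmb7, which encode beta5, beta1 and beta2, did not pass with TMM scaling. Psmb5 had 37.9 ± 6.02 CPM in treated and 44.5 ± 13.2 CPM in untreated cells (log2 fold change −0.23 ± 0.24, edgeR adjusted p = 0.456), a sign that turned with library size alone, at 0.057, and with housekeeping scaling, at 0.49. Psmb6 was at 226 ± 25.8 CPM in treated and 187 ± 44.2 CPM in untreated cells (0.28 ± 0.21, edgeR adjusted p = 0.313) and Psmb7 at 109 ± 21.6 CPM in treated and 93.1 ± 13.8 CPM in untreated cells (0.23 ± 0.19, edgeR adjusted p = 0.362). With housekeeping scaling Psmb6 was called higher at 0.98 (edgeR adjusted p = 0.00416) and Psmb7 at 0.95 (edgeR adjusted p = 0.00853), and library size alone called Psmb6 at 0.58 (edgeR adjusted p = 0.0498). Psme3, which encodes the nuclear activator PA28 gamma, was at 92.6 ± 19.5 CPM in treated and 92.1 ± 10.8 CPM in untreated cells (0.01 ± 0.18, edgeR adjusted p = 0.976), and was called higher with housekeeping scaling, at 0.72 (edgeR adjusted p = 0.0442).

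Of 11 tested genes for constitutive counterparts, other activators and assembly, 2 rose, none fell and 9 did not pass, where 20.3% of all genes tested were called higher. Their median log2 fold change was 0.16, and housekeeping scaling called 7 of the 11 higher and library size alone 3. The genes that rose encode assembly chaperones of the 20S core. Psmg1 stood at 30.2 ± 11.8 CPM in treated and 13.4 ± 3.91 CPM in untreated cells (log2 fold change 1.17 ± 0.33, edgeR adjusted p = 0.0225) and Psmg2 at 27.0 ± 10.5 CPM in treated and 12.7 ± 4.25 CPM in untreated cells (1.09 ± 0.34, edgeR adjusted p = 0.0345). Leaving out any of 4 single libraries for Psmg1, or 5 for Psmg2, ended the call. By DESeq2 also 0 fell, with 0 lower at an unadjusted p under 0.05 by edgeR and 1 by DESeq2. Among the remaining 29 core and regulatory subunits, 4 rose and none fell by edgeR or DESeq2 (0 lower at an unadjusted p under 0.05 by edgeR), beside 20.3% of all genes called higher, with a median of 0.21. Library size alone called 11 of the 29 higher (median 0.52) and housekeeping scaling 27 (median 0.91).

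**Figure D4:**
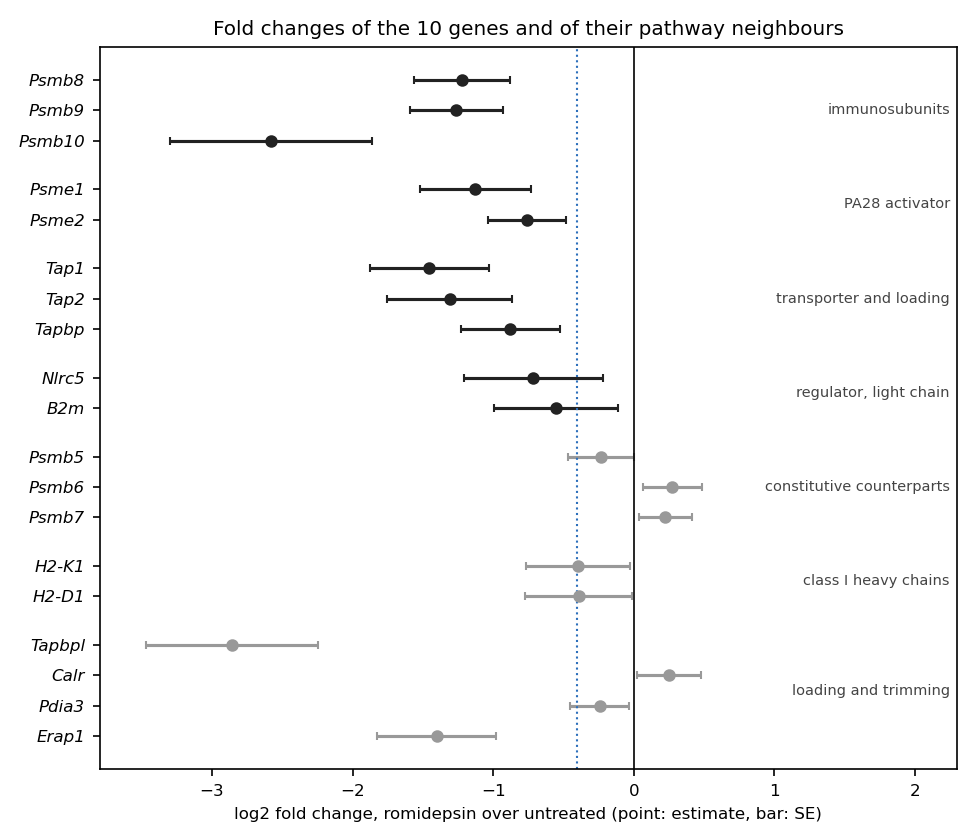
Log2 fold change, treated over untreated (point), with its standard error (bar), of the 10 genes (black) and of genes named beside them (grey). The dotted line marks the median of the most highly expressed of 5 gene classes, −0.40, and the 10 black points run from −2.58 for Psmb10 to −0.55 for B2m.

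The heavy chains that pair with beta-2-microglobulin were measured alongside it. Of 14 tested class I heavy chain and class I-like genes, edgeR called 3 lower, 0 higher and left 11 uncalled, beside 16.2% of all genes lower, and the median log2 fold change was −0.85. At an unadjusted p under 0.05, 1 was higher, and DESeq2 called 0 higher. The replicate block gave 8 lower and 1 higher, and leaving out treated replicate 3 gave 7 lower. Housekeeping scaling gave 1 lower and 1 higher, with a median of −0.21, and library size alone 2 lower and 1 higher. Near-identical copies exist among these genes, so counting could have divided their reads, which makes each value uncertain. The classical genes H2-K1 and H2-D1, which present peptides to CD8 T cells, did not pass. H2-K1 had 1633, 2489, 3632 and 2048 CPM in treated cells, against 1851, 3476, 4933 and 2662 CPM in untreated cells (log2 fold change −0.40 ± 0.37, edgeR adjusted p = 0.412). H2-D1 had 2687, 3284, 6269 and 3863 CPM in treated cells, against 3196, 5998, 7789 and 4142 CPM in untreated cells (−0.39 ± 0.38, edgeR adjusted p = 0.429). The groups overlapped widely in both genes, as for B2m.

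The class I genes that fell were non-classical. H2-M3, which presents N-formylated peptides, had 10.5, 9.65, 37.7 and 21.8 CPM in treated cells, against 55.8, 78.9, 90.7 and 66.6 CPM in untreated cells, with no overlap (−1.87 ± 0.42, edgeR adjusted p = 0.0105). H2-M2 fell to 2.96 ± 2.296 CPM in treated cells, against 11.5 ± 4.83 CPM in untreated cells (−1.96 ± 0.55, edgeR adjusted p = 0.0238). H2-Q4 fell to 100.2 ± 50.4 CPM in treated cells, against 245 ± 122 CPM in untreated cells (−1.29 ± 0.43, edgeR adjusted p = 0.0416). For H2-Q4 treated replicate 3 held 176 CPM and the other treated libraries 73.5 to 76.6 CPM. The H2-Q4 call was lost without any one of 5 libraries (adjusted p up to 0.115), and that of H2-M2 without any one of 3. Housekeeping scaling also ended the calls of H2-Q4 (edgeR adjusted p = 0.161) and H2-M2 (edgeR adjusted p = 0.0755), but not that of H2-M3 (edgeR adjusted p = 0.0140). With library size alone the H2-Q4 call was lost too (edgeR adjusted p = 0.0542).

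Of 12 tested loading partners and peptidases, 2 fell and 0 rose in edgeR, with 10 not passing, where 16.2% of all genes were called lower. Housekeeping scaling called 7 higher and 1 lower, and library size alone 3 higher and 2 lower. The median log2 fold change was 0.15. Tapbpl, which encodes the tapasin-related editor TAPBPR, had 1.43, 1.84, 10.5 and 3.49 CPM in treated cells, against 18.1, 30.7, 43.2 and 32.8 CPM in untreated cells. All treated libraries lay below all untreated ones, and the gene fell (−2.86 ± 0.61, edgeR adjusted p = 0.00891). Erap1, the aminopeptidase that trims peptides in the endoplasmic reticulum, had 18.98, 20.6, 74.1 and 47.4 CPM in treated cells, against 80.3, 93.9, 124 and 127 CPM in untreated cells (−1.40 ± 0.42, edgeR adjusted p = 0.0306). That call was lost when any one of 6 libraries was left out (adjusted p up to 0.0735). It was also lost with housekeeping scaling (edgeR adjusted p = 0.0906). The general chaperones of the loading complex did not pass with TMM scaling, although Calr was called higher with housekeeping scaling (0.95, edgeR adjusted p = 0.0143). Calr stood at 1420 ± 263 CPM in treated and 1194 ± 151 CPM in untreated cells (0.25 ± 0.23, edgeR adjusted p = 0.403), and Pdia3 at 638 ± 112 CPM in treated and 754 ± 96.1 CPM in untreated cells (−0.24 ± 0.21, edgeR adjusted p = 0.382). DESeq2 called 0 of the 12 higher, and 1 gene, Blmh, was higher at an unadjusted p under 0.05, chosen for naming after its value was seen.

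Of 23 tested upstream regulators, 8 fell, 1 rose and 14 did not pass, with a median log2 fold change of −0.50 that turned to 0.19 under housekeeping scaling. Over all genes 16.2% were called lower and 20.3% higher. Housekeeping scaling turned the calls to 7 higher and 1 lower, and library size alone gave 4 higher and 6 lower. Irf9, the DNA-binding subunit of the interferon-activated complex ISGF3, was at 74.4 CPM in treated replicate 3 and 26.5 to 33.8 CPM in the other treated libraries, against 132 to 164 CPM in untreated cells. Irf9 fell (−1.86 ± 0.33, edgeR adjusted p = 0.00435). It shares 123 exon bases with Rnf31 on the same strand. Ifngr2, a chain of the interferon gamma receptor, fell to 102 ± 23.3 CPM in treated cells, against 205 ± 19.1 CPM in untreated cells (−1.01 ± 0.19, edgeR adjusted p = 0.00513). Rela, the p65 subunit of NF-kappaB, fell to 70.3 ± 5.90 CPM in treated cells, against 117 ± 7.54 CPM in untreated cells (−0.74 ± 0.13, edgeR adjusted p = 0.00456), though its call and that of Ifngr2 were lost with housekeeping scaling. The subunits of the CCAAT-binding factor NF-Y did not move together. Nfyb rose (0.73 ± 0.17, edgeR adjusted p = 0.0105), Nfyc fell (−0.95 ± 0.20, edgeR adjusted p = 0.00859), a call lost with housekeeping scaling, and Nfya did not pass (−0.10 ± 0.40, edgeR adjusted p = 0.851). Nfyc and Nfya were named after their values were seen.

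Among the regulators nearest to these genes, Irf1 had 90.0, 97.6, 238 and 147 CPM in treated cells, against 162, 287, 393 and 235 CPM in untreated cells (−0.91 ± 0.37, edgeR adjusted p = 0.0776). Treated replicate 3 was the highest treated library and the groups overlapped through it. Irf1 did not pass, but with the replicate block it did, at edgeR adjusted p = 0.0113. Rfx5, part of the complex through which NLRC5 reaches DNA, was at 23.3 ± 5.28 CPM in treated and 28.1 ± 5.76 CPM in untreated cells (−0.27 ± 0.22, edgeR adjusted p = 0.345). Ciita, the relative of Nlrc5 that drives MHC class II genes, had 1.15 to 2.91 CPM in treated libraries and 28.8 to 104 CPM in untreated ones, without overlap (−4.68 ± 0.47, edgeR adjusted p = 6.72e-04). Of 8 tested class II genes, 2 fell by edgeR, 5 by DESeq2 and 1 by limma-voom, where edgeR called 16.2% of all genes lower. All 8 lay below 0, with a median log2 fold change of −1.29, beside −1.17 for the 10 genes. The replicate block called 6 of the 8 lower, beside 20.8% of all genes. With housekeeping scaling 6 lay below 0, at a median of −0.48, and 1 was called lower.

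The 10 genes lie on chromosomes 2, 8, 14 and 17, and some of them are neighbours. Psmb9, Tap1, Psmb8 and Tap2 stand side by side within 34.3 kb of the MHC on chromosome 17, with no other tested protein-coding gene between them, and their log2 fold changes span −1.45 to −1.22. The genes flanking this cluster, both encoding factors of class II peptide loading, did not pass. H2-DMb1 had 62.2 ± 4.92 CPM in treated and 95.4 ± 44.0 CPM in untreated cells (−0.62 ± 0.29, edgeR adjusted p = 0.117), and H2-Ob 15.7 ± 3.09 CPM in treated and 30.1 ± 22.7 CPM in untreated cells (−0.94 ± 0.48, edgeR adjusted p = 0.149). Around Psmb10, the nearest tested genes were Pskh1 and Slc12a4, at 0.40 ± 0.17 and 0.35 ± 0.19, and neither passed. Between Psme1 and Psme2 lies Emc9, which rose (0.78 ± 0.19, edgeR adjusted p = 0.0148). Both neighbours of Tapbp fell, Daxx (−1.74 ± 0.50, edgeR adjusted p = 0.0253) and Rgl2 (−1.02 ± 0.32, edgeR adjusted p = 0.0355), and so did both neighbours of Nlrc5, Herpud1 (−1.16 ± 0.22) and Cpne2 (−1.19 ± 0.15). Zbtb22, which overlaps Tapbp, fell too (−0.64, edgeR adjusted p = 0.0135). On the outer sides of Psme1 and Psme2, Dcaf11 (0.42 ± 0.16, edgeR adjusted p = 0.0677) and Rnf31 (−0.22 ± 0.21, edgeR adjusted p = 0.429) did not pass. Around B2m, Spg11 (−0.75 ± 0.36, edgeR adjusted p = 0.129) and Sord (0.28 ± 0.18, edgeR adjusted p = 0.234) did not pass. These neighbours were chosen by position after the first values were seen.

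**Figure D5:**
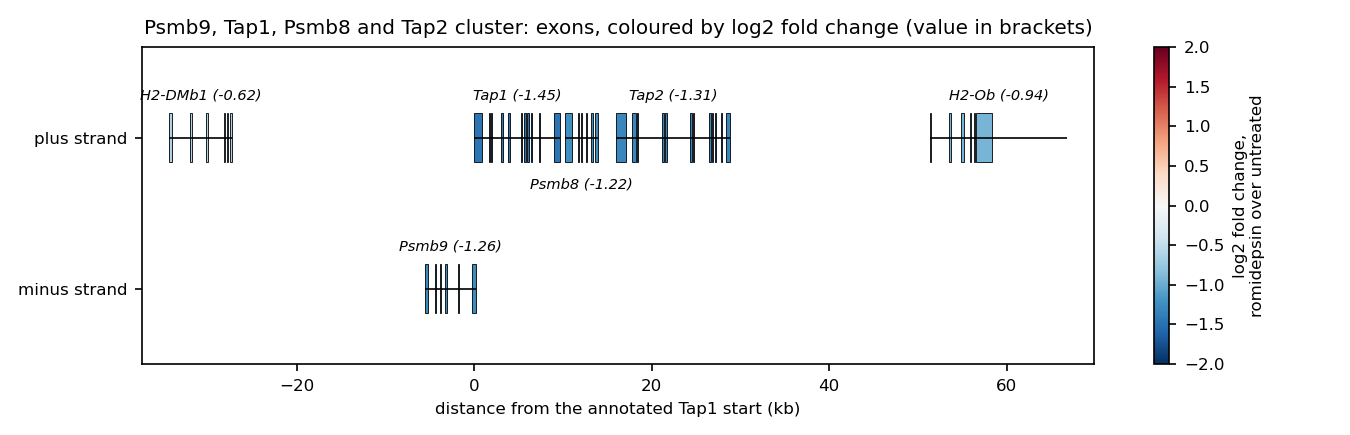
Exons of the principal transcripts (boxes) along the Psmb9, Tap1, Psmb8 and Tap2 cluster, by distance in kb from the Tap1 start and by strand, coloured by log2 fold change, treated over untreated. The 4 inner genes lie between −1.45 and −1.22, and the flanking H2-DMb1 and H2-Ob at −0.62 and −0.94.

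Counts were made without a stated strand setting, so reads in overlapping exons cannot be assigned. Psmb9 and Tap1 share 212 exon bases on opposite strands, small beside exon totals of 3660 and 5476 bases. Psmb8 shares 498 and Tap2 698 bases with antisense transcripts, of which Gm20496 had 0.112 CPM in treated and 0.147 CPM in untreated cells.

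Genes with the most similar profile over the 8 libraries were sought among 8771 named genes whose mean reached 10 CPM, leaving out predicted genes and pseudogenes. Likeness was the mean absolute difference between a gene's centred log2(CPM + 1) profile and the mean profile of the 10 genes. Stard3, which encodes a cholesterol transporter of late endosomes, was closest at 0.0903, followed by Ctsz, a cathepsin gene, at 0.0931, Parp10 at 0.112, Tgif1 at 0.119 and Ikbke at 0.120. Among the 10 genes, Psme1 was the most typical at 0.0989 and Psmb10 the least at 0.897. Stard3 had 41.5, 43.4, 126 and 75.4 CPM in treated cells, against 118, 202, 246 and 172 CPM in untreated cells, with treated replicate 3 passing untreated replicate 1, as in Tap1.

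Library size alone shifted the median log2 fold change of all genes by 0.30, and scaling to 21 housekeeping genes shifted it by 0.69. Those 21 genes were not level between the groups. With TMM scaling edgeR called 6 of them lower and 3 higher, at a median of −0.42. Actb, the highest of the 21 in CPM, fell (−1.14 ± 0.32, edgeR adjusted p = 0.0235), and Eef1a1, the next highest, did not pass (−0.55 ± 0.23, edgeR adjusted p = 0.0842). Housekeeping scaling is therefore not a neutral reference, and which scaling is nearest to the cells was not tested. With housekeeping scaling, Psmb10 was at −2.03, Tap1 at −0.86 and B2m at 0.076, so that 9 of the 10 genes were below 0 and the median of the 10 was −0.54. Total counts per library ran from 12996892 to 23176949.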

How the data were processed

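RNA-seq raw counts per gene for 8 libraries were used as the authors deposited them. The submitters' processing notes name FastQC, STAR 2.5.2a, DESeq2 and the build GRCm38. Not given in the sources used here are the counter, its strand setting, the gene annotation and filters. Groups came from sample titles. The count table was fitted whole with edgeR 4.0.16 in R 4.3.3 (filterByExpr, TMM, robust quasi-likelihood F test, untreated as baseline), with Benjamini-Hochberg adjustment over 12852 genes and a threshold of 0.05. Alternatives were DESeq2 1.42.0, limma 3.58.1 with voom, other scalings and filters, a replicate block and leaving out libraries. The script was tested on simulated data. Total counts of 12996892 to 23176949 per library set the counting precision.

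The 10 genes and all lists were chosen with earlier results of these data known. Named genes were the 10, a set list of partners, the called genes of smallest p in each list (3 in the more frequent direction and 1 in the other), and the 5 most similar profiles; 1 partner is not reported here. The main fit was unpaired. Only for the replicate block and the differences by number were replicate numbers taken to pair libraries. That pairing was inferred from these same data, where same-numbered libraries deviated together (correlations 0.525, 0.180, 0.474 and 0.104 for numbers 1 to 4). Libraries of different numbers correlated at up to 0.0873, so the pairing is weak for numbers 2 and 4. The labels do not say what a number marks. Promoter windows are RefSeq's, and gene positions come from GENCODE on GRCm38.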

Additional observations from a re-analysis of the deposited data

Results flagged for a closer look

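In 4 of 64 groups of 4 libraries examined, 1 library lay farther from the others than Dixon's test allows at the 95% level, and chance flags about 1 in 20 groups. Treated replicate 3 was the high library in 3 of them. Irf9 stood at 74.4 CPM there and at 26.5 to 33.8 CPM in the other treated libraries. H2-Q4 stood at 176 CPM there and at 73.5 to 76.6 CPM in the others. Rfx5 stood at 31.2 CPM there and at 20.4 to 21.0 CPM in the others. In untreated replicate 4, Psmb7 was low, at 72.5 CPM, where the other untreated libraries had 98.0 to 102 CPM.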

How the results depend on the processing

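With the replicate block, which pairs libraries by number, 5 of 60 other pathway genes were higher and 21 lower, against 3 and 13 without it. Library size alone called 11 pathway genes higher and 1368 genes lower over the table. Housekeeping scaling called 6085 genes higher and 676 lower, with 22 pathway genes higher and 3 lower, and brought the median log2 fold change of the 10 genes to −0.54. Of the 21 housekeeping genes, edgeR with TMM scaling called 6 lower and 3 higher, so their scaling is not a neutral check. Signs turned with housekeeping scaling for B2m (0.076), Psmb5 (0.49), H2-K1 (0.26), H2-D1 (0.25), Pdia3 (0.43) and Rfx5 (0.37), and with library size alone for Psmb5 (0.057), Pdia3 (0.047) and Rfx5 (0.022). Psme3 was 0.72 with housekeeping scaling (edgeR adjusted p = 0.0442) and 0.32 with library size alone, but −0.0223 with DESeq2 size factors, −0.0230 with no count filter, −0.0224 by DESeq2, −0.0081 by limma-voom and −0.0098 with the block. The cause was not tested. Leaving out 1 library gave 1716 to 3146 genes higher and 1183 to 3010 lower, 1 to 5 pathway genes higher and 10 to 23 lower, Psme3 at −0.11 to 0.10 and a median of the 10 genes of −1.58 to −1.001. Both upper counts of pathway genes came without treated replicate 3. Differences of the mean log2 ratios ran from −1.35 to −0.88 (Psmb8 to Psmb5), −1.84 to −1.37 (Psmb9 to Psmb6) and −4.20 to −2.83 (Psmb10 to Psmb7). Principal transcript length was added after seeing the data. Counting precision is limited most for genes under a few CPM, such as Tapbpl in treated cells.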
